A study of Mus musculus with 96 samples.

Results

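Messenger RNA of 9 genes that carry or answer the signal of leukaemia inhibitory factor (LIF) was followed across 7 comparisons in mouse embryonic stem cells (ESCs), together with the peaks of STAT3, RING1B, WDR5 and 2 histone marks at these genes. The genes were the receptor subunits Lifr and Il6st, the kinases Jak1 and Jak2, the transcription factor Stat3, the feedback inhibitor Socs3, and the target genes Pim1, Pim3 and Bcl3. They were taken by symbol, 9 of the 37620 genes in each count table, and every one of them passed the filter on low counts in all 7 tables.

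LIF keeps mouse ESCs self-renewing. It binds a receptor made of LIFR and gp130 (the product of Il6st), the receptor-bound kinases JAK1 and JAK2 phosphorylate STAT3, and STAT3 moves to the nucleus and activates its targets. One target, Socs3, encodes a protein that binds gp130 and JAK and switches the signal off. RYBP is a subunit of variant Polycomb repressive complex 1, whose catalytic subunit RING1B ubiquitinates histone H2A, and WDR5 is a shared subunit of the complexes that methylate histone H3 at lysine 4.

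All ESCs were grown in serum medium with 1000 U/mL LIF, so each comparison asks how the LIF genes stood when the signal was already on. R1 ESCs carried an empty vector (shEV) or a short hairpin RNA against Rybp (shRybp) or Wdr5 (shWdr5), and the same shEV libraries served both knockdowns. R7.15 ESCs with floxed Rybp alleles (Rybp+/+) were compared with the same line after 5 µM 4-OHT for 4 days (Rybp-/-). A second pair of R7.15 groups had the genotype RYBPfl/fl Rosa26::CreERT2, both received 4-OHT, and they overexpressed either WT RYBP or RYBP lacking 21 amino acids, a change the labels call phase disruption. R1 ESCs labelled TF-AA mutation were compared with WT R1 ESCs. J1 ESCs with a Tet on.RYBP transgene received vehicle or doxycycline (DOX), and a line labelled rTRS with DOX-induced Rybp_Stat3 integration was left untreated (NTC) or received DOX. Each group held 2 libraries, 26 in all over 13 groups. Nothing in the labels says that the 2 libraries of a group came from separate cultures or clones, so the p-values measure the spread between libraries, which may be technical. STAT3 peaks were given for Rybp+/+ and Rybp-/- cells and for Tet.Rybp.Stat3 cells without (DOX-) and with (DOX+) doxycycline, and RING1B peaks for R1 cells with shEV or a hairpin against Stat3 (shStat3) and for the same DOX- and DOX+ cells. WDR5, H3K27ac and H3K4me3 peaks were given for Rybp+/+ and Rybp-/- cells.

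The libraries held 14512857 to 81049618 counts on genes, and Jak2, the member with the fewest reads, was measured in every one. The shEV libraries had been counted in a different way in their 2 tables (41697967 counts on genes against 21241931 for replicate 1), so values were compared only within a table. The targeted genes moved as the labels say in 4 tables. Rybp fell by 1.25 on the log2 scale in shRybp cells and by 2.15 in Rybp-/- cells, Wdr5 fell by 2.55 in shWdr5 cells, and Rybp rose by 1.91 in J1 cells with DOX. Wdr5 also fell by 0.49 in shRybp cells, and Rybp rose by 0.56 in shWdr5 cells. Rybp was lower with phase-disrupted than with WT RYBP (−0.22, adjusted p = 6.8e-05) and changed by −0.19 in TF-AA cells (adjusted p = 0.0959). In the rTRS table Rybp did not rise: its CPM (the usual unit of read counts relative to library size, here scaled by the TMM method) were 113.4 and 110.5 in the NTC libraries and 101.8 and 99.8 in the libraries labelled DOX (log2 change −0.15, adjusted p = 0.0762). Those 2 libraries are therefore called the libraries labelled DOX below. The column of DOX replicate 2 was matched to its sample by the words DOX and R2, but its name starts with a code that is not in the labels, and that of phase disruption replicate 2 carries an added letter. Socs3 stayed at −1.78 to −1.59 on the log2 scale whichever rTRS library was left out, DOX replicate 2 among them. All 8 ESC marker genes were expressed in every group. In bulk RNA, fewer cells expressing a gene and less RNA per cell cannot be told apart.

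STAT3 peaks lay at the regulatory sequences of Stat3 itself, Socs3 and Bcl3 in all 4 STAT3 lists. A peak was assigned to a gene when it overlapped the gene or the 10 kb on either side, and strength is the fold enrichment over input that the peak caller gave. Of the 9 genes, 5 had a STAT3 peak in Rybp+/+ cells (Stat3, Socs3, Lifr, Pim1 and Bcl3), against 8.99% of all 37310 annotated genes, and 4 had one in Rybp-/- cells (Stat3, Socs3, Jak2 and Bcl3), against 7.43%. In DOX- cells 8 of 9 had one, against 10.1%, and in DOX+ cells again 8 of 9, against 52.5%. All 9 members are protein-coding. Of the 22380 protein-coding genes, 12.4% had one in Rybp+/+, 10.2% in Rybp-/-, 13.6% in DOX- and 67.5% in DOX+ cells. The DOX+ list is far longer, with 30663 peaks against 2816 in DOX-, 2363 in Rybp+/+ and 1917 in Rybp-/- cells. Il6st had none within 10 kb in any list. With a 50 kb window it had one in the DOX+ list alone, where 69.1% of all genes had one. The following sequences are shown because they are where the STAT3 peaks of Stat3, Socs3, Bcl3 and Pim3 lie, and because all but the first hold the core STAT-binding motif TTCNNNGAA, which is its own reverse complement. Capitals mark that motif. Coordinates are mm9, and the plus strand is printed.
Stat3, 220 bases upstream of the gene start, under the summit in DOX+ cells, peaks in all 4 lists, no motif in this window, chr11:100800979-100801169: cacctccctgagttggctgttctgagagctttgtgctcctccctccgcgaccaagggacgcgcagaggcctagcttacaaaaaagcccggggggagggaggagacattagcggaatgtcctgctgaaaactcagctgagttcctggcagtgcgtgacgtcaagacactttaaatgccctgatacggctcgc
Socs3, motif 57 bases upstream of the nearest transcript start and in an intron of a longer Socs3 transcript, peaks in all 4 lists, chr11:117830501-117830652: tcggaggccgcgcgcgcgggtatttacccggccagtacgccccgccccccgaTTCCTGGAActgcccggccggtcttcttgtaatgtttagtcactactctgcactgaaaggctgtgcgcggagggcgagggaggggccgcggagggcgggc
Socs3, second motif in the same peak, also in that intron, chr11:117830766-117830925: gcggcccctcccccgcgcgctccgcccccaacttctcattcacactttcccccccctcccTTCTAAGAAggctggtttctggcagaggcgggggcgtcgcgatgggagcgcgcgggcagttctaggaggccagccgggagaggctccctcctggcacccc
Socs3, upstream peak found only in DOX+ cells, chr11:117836983-117837173: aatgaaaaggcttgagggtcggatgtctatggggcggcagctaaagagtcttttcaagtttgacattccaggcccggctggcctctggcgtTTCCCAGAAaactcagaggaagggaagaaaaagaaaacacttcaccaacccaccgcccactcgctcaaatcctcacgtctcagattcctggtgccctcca
Bcl3, intron, 2 motifs, peaks in all 4 lists, chr7:20401577-20401865: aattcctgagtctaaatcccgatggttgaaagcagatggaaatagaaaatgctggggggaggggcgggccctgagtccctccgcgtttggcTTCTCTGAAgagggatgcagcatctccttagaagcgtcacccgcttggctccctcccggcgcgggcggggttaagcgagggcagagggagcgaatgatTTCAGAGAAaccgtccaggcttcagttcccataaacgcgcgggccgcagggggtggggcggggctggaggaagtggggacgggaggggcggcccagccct
Pim3, downstream peak found only in DOX+ cells, chr15:88698024-88698214: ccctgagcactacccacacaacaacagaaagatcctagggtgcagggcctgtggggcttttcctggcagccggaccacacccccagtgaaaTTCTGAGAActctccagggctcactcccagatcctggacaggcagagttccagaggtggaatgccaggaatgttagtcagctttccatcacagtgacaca

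The Stat3 promoter peak was among the strongest of its lists. Its enrichment was 25.7 in Rybp+/+ cells (rank 1), 18.3 in Rybp-/- cells (rank 2), 27.3 in DOX- cells (rank 2) and 52.9 in DOX+ cells (rank 1). The Bcl3 intron peak, about 6.3 kb inside the gene, had an enrichment of 17.4 in Rybp+/+ cells (percentile 99.9 of its list) and 7.66 in Rybp-/- cells (98.3). In DOX- cells it stood at 9.36 (percentile 96.9) and in DOX+ cells at 12.5 (98.7). At the Socs3 promoter the enrichment was 6.13 in Rybp+/+ and 5.69 in Rybp-/- cells, and 10.9 in DOX- and 14.3 in DOX+ cells. More peaks were listed at several members with DOX, in the far longer list. Bcl3 had 1 peak without DOX and 8 with it, Socs3 1 and 5 (the added ones at −5.72, 1.82, 6.45 and 7.77 kb from the gene start), Stat3 1 and 3, and Jak2 and Pim3 1 and 2 each. The added Stat3 peaks lay 31.9 and 58.4 kb from its start, the latter past the end of the gene. Lifr, Jak1, Jak2, Pim1 and Pim3 each had a single, weaker promoter peak in DOX- cells. Enrichment went from 5.21 to 8.26 with DOX at Lifr and from 7.16 to 9.38 at Jak2, whereas it went from 8.58 to 5.71 at Pim1. Each list stands for 1 library (R7.15) or 2 merged libraries (Tet.Rybp.Stat3), so these differences have no replicate check and no test. The motif was not concentrated at the peaks. It was present in 3.68% of 200-base windows at STAT3 summits in Rybp+/+ cells, 3.23% in Rybp-/-, 3.62% in DOX- and 3.8% in DOX+ cells, in 5.17% of windows at all gene starts, and in 5.22 to 6.18% of windows 1 kb from the summits. Among the strongest peaks of each list, about 500, the share was 5.63 to 7.37%. A match is a description of the sequence, not a site.

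**Figure D1:**
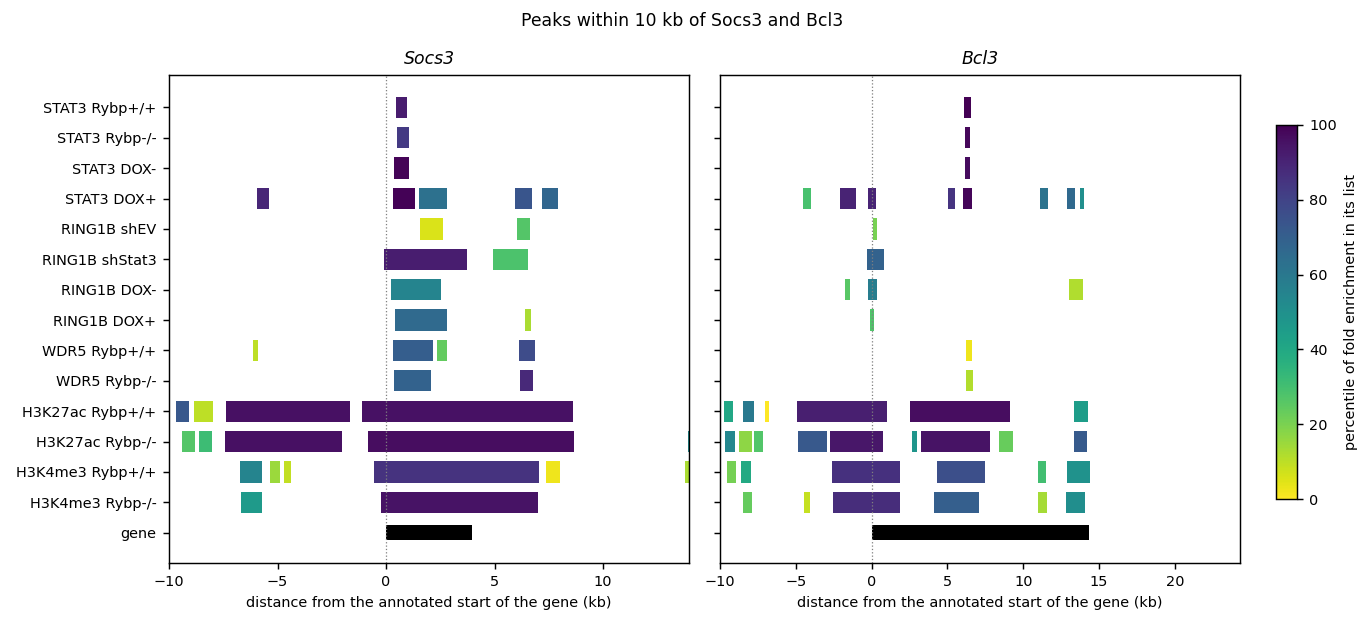
Peaks at Socs3 and Bcl3 in the 14 lists, drawn by distance from the gene start in kb, 1 line per list, with bar width to scale. STAT3 peaks at the Socs3 promoter and in the Bcl3 intron recur in all 4 STAT3 lists, and the longer DOX+ list holds 8 STAT3 peaks at Bcl3 and 5 at Socs3, against 1 at each gene in DOX- cells.

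In RNA, between 1 and 8 of the 9 members were called changed in a comparison, numbers that have to be read against how much of the transcriptome changed. A gene was called changed at an adjusted p under 0.05 (edgeR's quasi-likelihood test, Benjamini-Hochberg adjusted over all genes tested). After Rybp knockdown 7 of 9 members were called, against 52.7% of all genes, with 3 higher (26.8% of all genes were higher) and 4 lower (26.0% lower). After Wdr5 knockdown 5 of 9 were called (63.0% of all genes), 1 higher (31.5%) and 4 lower (31.5%). In Rybp-/- cells 5 of 9 were called (45.5%), 2 higher (22.8%) and 3 lower (22.7%). In TF-AA cells 6 of 9 were called (30.5%), 0 higher (14.4%) and 6 lower (16.1%). With phase-disrupted RYBP 5 of 9 were called (33.0%), 1 higher (16.1%) and 4 lower (17.0%). RYBP induction in J1 cells moved 1 of 9 (6.02%), upwards (3.63% higher, 2.39% lower). In the libraries labelled DOX of the rTRS line 8 of 9 were called (43.4%), 4 higher (23.0%) and 4 lower (20.4%). The median absolute log2 change of the members was 0.39 after Rybp knockdown (all genes 0.34), 0.29 after Wdr5 knockdown (0.40), 0.11 in Rybp-/- cells (0.23), 0.37 in TF-AA cells (0.23), 0.27 with phase-disrupted RYBP (0.21), 0.11 in J1 cells (0.14) and 0.65 in the rTRS line (0.34).

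**Figure D2:**
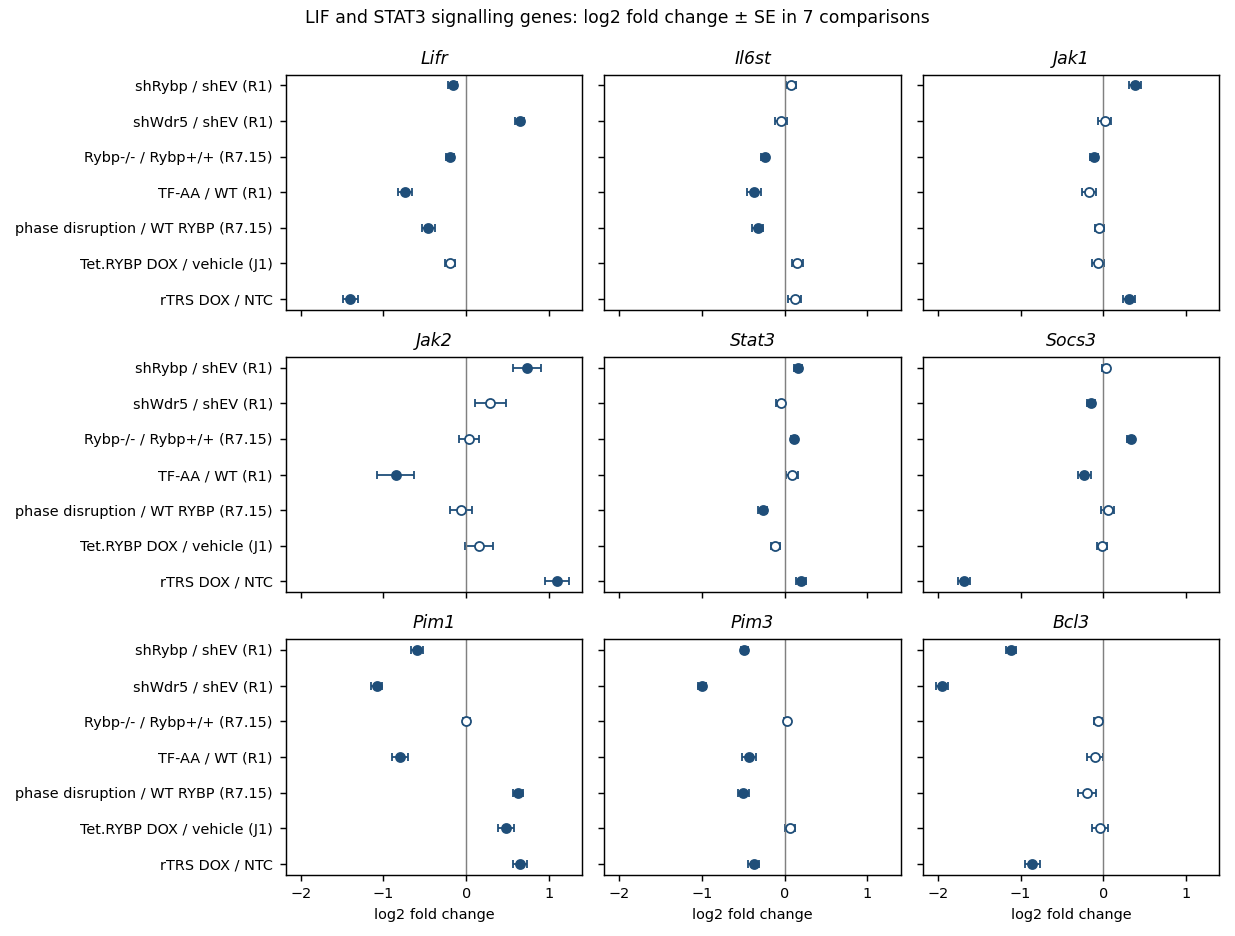
Log2 fold change (x axis) with its standard error for each of the 9 genes in the 7 comparisons (y axis), 2 libraries per group. Filled points are called at an adjusted p under 0.05. Bcl3, Pim1 and Pim3 fell in both knockdowns, Socs3 fell most in the rTRS line, and Lifr fell in 5 comparisons and rose in shWdr5 cells.

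Lifr, which encodes a subunit of the LIF receptor, was called in 6 of 7 comparisons, 5 falls and 1 rise. Its CPM was 73.8 and 83.2 in the rTRS NTC libraries and 28.2 and 31.1 in the libraries labelled DOX, a log2 change of −1.40 ± 0.09 (SE, adjusted p = 6.72e-08). In TF-AA cells it was 73.3 and 81.2 against 120.0 and 138.2 in WT (−0.74 ± 0.09, adjusted p = 5.87e-07). With phase-disrupted RYBP it was 44.4 and 38.7 against 56.6 and 57.7 with WT RYBP (−0.46 ± 0.08, adjusted p = 1.81e-05). None of these groups overlapped. The falls after loss of RYBP were smaller. Lifr stood at 49.0 and 47.1 CPM in Rybp-/- against 55.4 and 54.5 in Rybp+/+ cells (−0.20 ± 0.05, adjusted p = 0.00119), and at 61.1 and 57.2 in shRybp against 65.5 and 67.2 in shEV cells (−0.16 ± 0.06, adjusted p = 0.0273). The shRybp call was lost without shEV replicate 2 (adjusted p = 0.0644) or without shRybp replicate 2 (0.241). In shWdr5 cells Lifr rose instead, with 101.7 and 93.8 CPM against 61.5 and 63.3 (+0.65 ± 0.06, adjusted p = 1.52e-09). After RYBP induction in J1 cells it was 123.1 and 122.3 against 135.3 and 145.0 (−0.19, adjusted p = 0.058), which passed the threshold without vehicle replicate 1 (−0.24, adjusted p = 0.000494).

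Il6st encodes gp130, the signal-transducing subunit shared by the cytokines of the interleukin-6 family. It fell in 3 comparisons and rose in none. Its CPM was 72.8 and 71.4 in TF-AA cells against 91.0 and 95.5 in WT (−0.37 ± 0.08, adjusted p = 0.00116), 76.4 and 88.0 with phase-disrupted RYBP against 103.1 and 103.4 (−0.33 ± 0.06, adjusted p = 0.000127), and 63.3 and 63.0 in Rybp-/- against 75.9 and 73.5 in Rybp+/+ cells (−0.24 ± 0.04, adjusted p = 2.27e-05). The groups did not overlap in these 3 tables. In both knockdowns the libraries overlapped, with log2 changes of 0.07 in shRybp (adjusted p = 0.352) and −0.04 in shWdr5 cells (adjusted p = 0.594). In J1 cells Il6st was 114.5 and 115.4 CPM with DOX against 100.8 and 105.9 (+0.15, adjusted p = 0.166), past the threshold without vehicle replicate 2 (adjusted p = 0.0283). In the rTRS line the change was +0.12 (adjusted p = 0.231).

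The receptor-associated kinases rose together in 2 comparisons. Jak1 stood at 50.1 and 51.7 CPM in shRybp against 41.5 and 36.2 in shEV cells (+0.39 ± 0.07, adjusted p = 0.000186), and Jak2 at 7.12 and 7.69 against 3.69 and 5.19 (+0.74 ± 0.17, adjusted p = 0.00138). In the rTRS line Jak1 was 89.0 and 94.9 in the libraries labelled DOX against 73.1 and 75.3 in NTC (+0.31 ± 0.07, adjusted p = 0.00304). Jak2 there was 17.9 and 18.4 against 7.22 and 9.70 (+1.10 ± 0.14, adjusted p = 4.61e-05). Both genes were higher in every treated library than in every control library of these tables. In TF-AA cells Jak2 fell to 2.63 and 3.63 CPM from 5.49 and 5.78 (−0.85 ± 0.23, adjusted p = 0.00548), a call lost without TF-AA replicate 1 (adjusted p = 0.112), while Jak1 changed by −0.17 (adjusted p = 0.139). In Rybp-/- cells Jak1 was 71.2 and 73.1 against 76.7 and 79.2 (−0.11 ± 0.04, adjusted p = 0.0312). That call did not hold without Rybp+/+ replicate 2 (adjusted p = 0.127), Rybp-/- replicate 1 (0.254) or Rybp-/- replicate 2 (0.0828), and DESeq2 gave 0.0556. Jak2 changed by 0.04 in Rybp-/- cells (adjusted p = 0.842). In shWdr5 cells Jak2 was 5.0 and 5.57 against 3.6 and 5.06 (+0.29, adjusted p = 0.179), past the threshold without shEV replicate 2 (+0.55, adjusted p = 0.0214), and Jak1 changed by 0.02. With phase-disrupted RYBP and in J1 cells neither kinase was called, with log2 changes of −0.06 to 0.16.

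Stat3 moved within the narrowest range of all members, from −0.27 to 0.20 on the log2 scale over the 7 comparisons. In shRybp cells it was 167.6 and 171.3 CPM against 150.2 and 152.8 in shEV (+0.16 ± 0.05, adjusted p = 0.00825), and in Rybp-/- cells 158.7 and 156.9 against 146.0 and 146.4 (+0.11 ± 0.03, adjusted p = 0.00996). These small rises were lost without shRybp replicate 2 (adjusted p = 0.105), and without Rybp-/- replicate 1 (0.129) or replicate 2 (0.0709). The one fall was with phase-disrupted RYBP, at 120.6 and 120.4 CPM against 145.7 and 144.0 (−0.27 ± 0.05, adjusted p = 0.000163). In the rTRS line, whose genotype names a Stat3 integration, Stat3 was 191.0 and 188.5 CPM in the libraries labelled DOX against 158.8 and 172.4 in NTC, a log2 change of +0.20 ± 0.06 (adjusted p = 0.0259) that was lost without NTC replicate 1 (0.261), DOX replicate 1 (0.0955) or DOX replicate 2 (0.0546). In shWdr5, TF-AA and J1 cells its log2 changes were −0.05, 0.09 and −0.11 (adjusted p = 0.387, 0.425 and 0.281). Stat5a lies on the opposite strand next to Stat3 and their 3′ ends overlap. The strand setting of the counting is not given in the sources used here, so reads from the overlap cannot be told apart.

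Socs3, the feedback inhibitor, showed its largest change in the rTRS line, where it fell 3.22-fold. It stood at 283.5 and 249.9 CPM in NTC and at 84.5 and 81.1 in the libraries labelled DOX (−1.69 ± 0.07, adjusted p = 2.6e-09), the largest change of any member in that table. In Rybp-/- cells Socs3 moved up, from 68.8 and 73.0 CPM to 89.2 and 89.3 (+0.33 ± 0.04, adjusted p = 7.63e-08), with no overlap. Knockdown of the same gene gave 275.0 and 275.8 CPM, within the 262.9 and 277.3 of the shEV libraries (+0.03, adjusted p = 0.639). In TF-AA cells it was 102.5 and 106.9 against 126.7 and 118.4 (−0.23 ± 0.08, adjusted p = 0.034). That call was lost in DESeq2 (adjusted p = 0.0612) and without WT replicate 1 (0.0926), TF-AA replicate 1 (0.34) or TF-AA replicate 2 (0.165). In shWdr5 cells it was 222.1 and 239.8 against 248.6 and 262.2 (−0.15 ± 0.05, adjusted p = 0.0131), a call lost in DESeq2 (0.0534), without shEV replicate 2 (0.0586) and without shWdr5 replicate 1 (0.283). With phase-disrupted RYBP and in J1 cells the groups overlapped, with log2 changes of 0.05 (adjusted p = 0.639) and −0.02 (adjusted p = 0.936).

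Pim1 and Pim3 encode serine/threonine kinases that promote survival and self-renewal. Both fell in both knockdowns. Pim1 was 177.1 and 217.1 CPM in shEV and 136.4 and 124.2 in shRybp cells (−0.60 ± 0.07, adjusted p = 1.31e-06), and against the same controls in the other table, at 169.4 and 208.8, it was 87.3 and 91.2 in shWdr5 cells (−1.08 ± 0.07, adjusted p = 3.82e-12). Pim3 was 385.5 and 392.2 in shEV and 271.4 and 283.7 in shRybp cells (−0.49 ± 0.04, adjusted p = 3.39e-08). In the Wdr5 table it was 364.6 and 370.8 in shEV and 176.7 and 191.2 in shWdr5 cells (−0.999 ± 0.048, adjusted p = 1.88e-14). Neither gene moved in Rybp-/- cells, where Pim1 was 91.5 and 92.3 against 90.3 and 93.3 CPM and Pim3 was 229.8 and 227.1 against 217.3 and 232.2 (adjusted p = 0.987 and 0.624). In TF-AA cells both fell, Pim1 from 50.01 and 49.65 CPM to 28.8 and 28.3 (−0.80 ± 0.10, adjusted p = 6.83e-07) and Pim3 from 180.0 and 154.9 to 128.4 and 119.9 (−0.43 ± 0.08, adjusted p = 0.000362).

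The 2 Pim genes moved in opposite directions where RYBP was phase-disrupted and in the rTRS line. With phase-disrupted RYBP, Pim1 rose from 74.3 and 84.2 to 120.8 and 124.1 CPM (+0.63 ± 0.06, adjusted p = 6.33e-10), while Pim3 fell from 123.1 and 125.8 to 79.5 and 96.4 (−0.50 ± 0.07, adjusted p = 2.28e-07). In the rTRS line Pim1 rose from 54.9 and 49.4 to 85.4 and 78.2 (+0.65 ± 0.08, adjusted p = 3.09e-05) and Pim3 fell from 260.7 and 242.8 to 198.4 and 189.5 (−0.38 ± 0.06, adjusted p = 0.000378). No library of one group reached into the other in these 4 comparisons of a gene. Pim1 was also the single member called after RYBP induction in J1 cells, at 45.2 and 45.4 CPM against 33.4 and 31.4 (+0.48 ± 0.09, adjusted p = 0.000715). Pim3 there was 190.2 and 197.9 against 197.2 and 173.1 (+0.07, adjusted p = 0.609), past the threshold without vehicle replicate 1 (+0.17, adjusted p = 0.00768) and at −0.02 without vehicle replicate 2.

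Bcl3 encodes an atypical IκB protein that acts with NF-κB in the nucleus and is a STAT3 target in ESCs. It had the largest falls of any member in the R1 knockdowns. It was 152.6 and 175.3 CPM in shEV and 77.2 and 74.3 in shRybp cells, 2.16-fold lower (log2 change −1.11 ± 0.06, adjusted p = 3.82e-11). In the Wdr5 table it was 144.9 and 165.8 in shEV and 37.9 and 42.3 in shWdr5 cells, 3.87-fold lower (−1.95 ± 0.07, adjusted p = 6.81e-17). It also fell in the rTRS line, from 89.0 and 73.8 to 46.9 and 42.9 (−0.86 ± 0.09, adjusted p = 1.01e-05). Bcl3 was not called in the other 4 comparisons. It was 31.0 and 29.9 in Rybp-/- against 31.2 and 32.1 in Rybp+/+ cells (−0.06, adjusted p = 0.447), 52.4 and 43.9 in TF-AA against 55.2 and 48.1 in WT cells (−0.10, adjusted p = 0.494), 18.9 and 19.5 with phase-disrupted RYBP against 23.0 and 21.0 (−0.19, adjusted p = 0.181), and 31.3 and 29.4 in J1 cells with DOX against 32.3 and 30.0 (−0.04, adjusted p = 0.891).

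**Figure D3:**
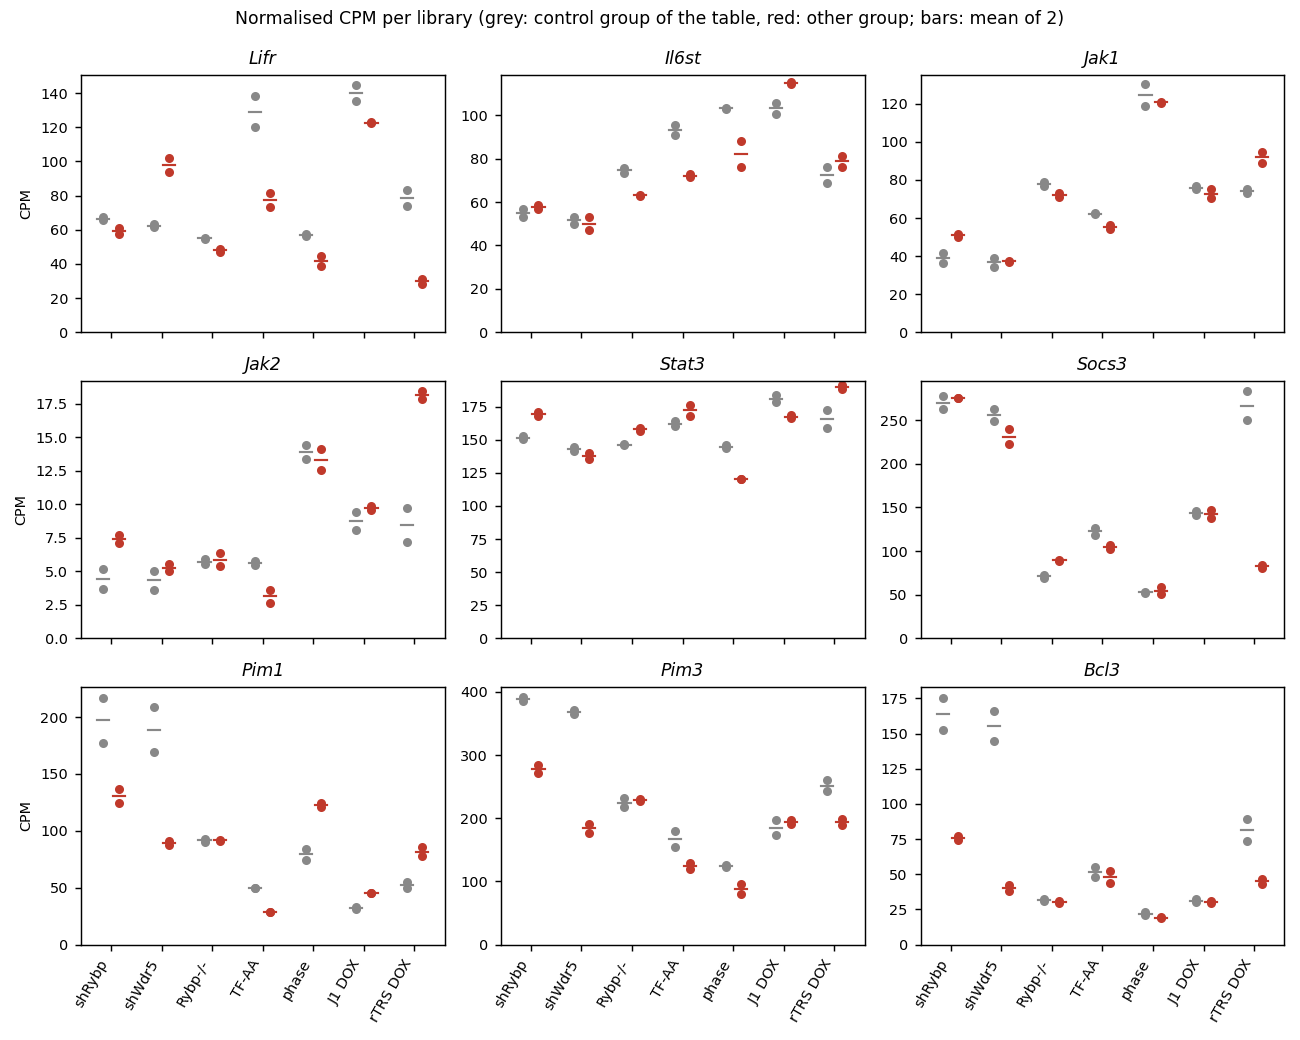
CPM (y axis, from 0) of each gene in every library, by comparison (x axis). Grey points are the control libraries and red points the others, with bars at the mean of 2. The grey and red points separate for Bcl3 in shRybp, shWdr5 and the rTRS line and lie close together for Bcl3 in Rybp-/-, TF-AA and J1 cells.

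Rybp was depleted in 2 ways, and the difference between the knockdown effect in R1 and the knockout effect in R7.15 was tested as an interaction over both tables (edgeR). It was past the threshold for 7 of 9 members, against 40.5% of all genes. Relative to the knockout effect, the knockdown effect was lower by 1.08 on the log2 scale for Bcl3 (−1.08 ± 0.08, adjusted p = 5.52e-10), for Pim1 (−0.62 ± 0.09, adjusted p = 7.27e-06), for Pim3 (−0.53 ± 0.06, adjusted p = 6.27e-08) and for Socs3 (−0.33 ± 0.06, adjusted p = 0.000116). It was higher for Jak1 (+0.48 ± 0.08, adjusted p = 5.41e-05), Il6st (+0.29 ± 0.07, adjusted p = 0.00264) and Jak2 (+0.68 ± 0.22, adjusted p = 0.0155). The Jak2 difference was lost without shEV replicate 1 (0.44, adjusted p = 0.119), shRybp replicate 2 (0.0606), Rybp+/+ replicate 1 (0.0534) or Rybp-/- replicate 1 (0.0833). For Stat3 (0.03) and Lifr (0.01) the 2 effects did not differ past the threshold (adjusted p = 0.738 and 0.961). Cell line, table and way of depletion differ together here and cannot be told apart.

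The difference between the libraries labelled DOX and NTC in the rTRS line was set against the DOX effect in J1 cells in the same way, although Rybp rose in J1 cells alone. It differed for 7 of 9 members, against 29.0% of all genes. The rTRS difference was lower for Socs3 (−1.70, adjusted p = 3.74e-10), Lifr (−1.24, adjusted p = 9.99e-08), Bcl3 (−0.84, adjusted p = 0.000114) and Pim3 (−0.47, adjusted p = 0.000856), and higher for Jak2 (+0.92, adjusted p = 0.00387), Jak1 (+0.34, adjusted p = 0.0122) and Stat3 (+0.28, adjusted p = 0.0158). For Pim1 both were rises, and their difference was +0.14 (adjusted p = 0.397). The Jak1 difference was lost without rTRS DOX replicate 2 (0.0549) or J1 DOX replicate 1 (0.0737), and the Stat3 difference without NTC replicate 1 (0.0781), J1 DOX replicate 1 (0.0537) or J1 DOX replicate 2 (0.0698). Line, transgene and the missing rise of Rybp differ together here too.

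Markers of other cell types moved with some of these results. In the rTRS line the summed CPM of 8 trophectoderm markers went from 278 to 292 in NTC to 1140 to 1230 in the libraries labelled DOX (6 of 8 called higher, none at 0), that of 6 primitive streak and mesoderm markers from 12.2 to 14.5 up to 63.9 to 69.5 (4 called higher), and that of 8 ESC markers from 5560 to 5860 down to 3190 to 3410 (7 called lower). In shRybp cells the trophectoderm sum went from 131 to 144 up to 364 to 382 (6 of 8 higher, 1 lower). The ESC sum there went from 8630 to 9560 down to 6600 to 6820 (5 of 8 lower, 2 higher). In shWdr5 cells the trophectoderm sum went from 124 to 136 up to 279 to 292 (4 higher, 1 lower). The ESC sum there went from 8150 to 9040 down to 6360 to 6450 (7 lower, 1 higher). In Rybp-/- cells the sum of 8 fibroblast (feeder) markers went from 61.7 to 62.6 up to 124 to 129 (7 of 8 higher). The feeder sum was 445 to 453 with WT RYBP and 361 to 387 with phase-disrupted RYBP (3 of 8 lower). In shRybp cells the feeder sum went from 21.2 to 22.3 up to 34.4 to 34.6 and in TF-AA cells from 17.1 to 17.4 up to 30.1 to 31 (3 of 8 called higher in each), with Dcn and Lum at 0 in all R1 and J1 groups. The sum of 7 primitive endoderm markers was 93.3 to 96.8 in WT and 138 to 146 in TF-AA cells (2 called higher), and it was 66 to 69.4 in shEV and 84.8 to 86.9 in shRybp cells (5 called higher, 1 lower). The trophectoderm sum was 166 to 168 in Rybp+/+ and 203 to 211 in Rybp-/- cells (7 of 8 higher), and 418 to 424 with WT RYBP and 510 to 538 with phase-disrupted RYBP (4 higher, 1 lower). The primitive streak and mesoderm sum was 32 to 32.7 with WT RYBP and 19.9 with phase-disrupted RYBP (1 of 6 lower). The sum of 4 neural markers was lower in J1 cells with DOX (up to 115 in vehicle, 74.9 to 76.6 with DOX), in shRybp (311 to 325, then 236 to 238), in shWdr5 (294 to 307, then 179 to 190) and in the libraries labelled DOX of the rTRS line (157 to 167, then 103 to 111), with 2 of 4 called lower in each and 1 or 2 called higher in all but J1 cells. In Rybp-/- cells the neural sum was instead higher, 133 to 134 against 114 to 120 (3 called higher, 1 lower). The trophectoderm sum was 83.8 to 85 in WT and 102 to 108 in TF-AA cells (3 called higher). In the rTRS line the primitive endoderm sum was 50.5 to 54.6 in NTC and 30.1 to 32.8 in the libraries labelled DOX (2 called lower). The part of these marker changes in the members' changes was not tested.

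Per kilobase of gene length, Pim3 was the most abundant member in most groups and Jak2 the least. In shEV cells of the Rybp table Pim3 stood at 161 CPM per kb and Jak2 at 0.883. Pim3 reached 92.8 in Rybp+/+, 69.2 in WT, 76.5 in J1 vehicle and 104 in rTRS NTC cells. It did not lead in 2 groups. Socs3 (79.9) and Pim3 (76) overlapped in shWdr5 cells, and Pim1 led with 62.1 where RYBP was phase-disrupted. Jak2 was last in every group except the rTRS libraries labelled DOX, where it stood at 3.61 and Lifr at 2.87. Socs3 varied between tables from 18.2 CPM per kb with WT RYBP to 95.3 in shRybp cells, levels that were normalised separately and are given side by side only. Neighbours whose libraries overlapped included Pim1 and Socs3 in shEV, Bcl3 and Il6st in Rybp-/-, Bcl3 and Stat3 in TF-AA, and Jak1 and Il6st in phase-disrupted cells.

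The wider pathway was followed with 56 other genes: ligands, receptors, kinases and STATs, adaptors, inhibitors, and genes known as STAT3 targets. Of those tested in shRybp cells, 19 rose and 14 fell of 54 (61.1% called, against 52.7% of all genes). In shWdr5 cells 15 rose and 23 fell of 50 (76% against 63.0%), in Rybp-/- cells 19 rose and 15 fell of 56 (60.7% against 45.5%) and in TF-AA cells 7 rose and 19 fell of 52 (50% against 30.5%). With phase-disrupted RYBP 9 rose and 13 fell of 53 (41.5% against 33.0%), in J1 cells 1 rose and 8 fell of 51 (17.6% against 6.02%), and in the rTRS line 18 rose and 14 fell of 53 (60.4% against 43.4%). These counts were not tested against the background. In TF-AA cells Gab1, a docking protein of the receptor, went from 397 and 410 CPM to 116 and 118 (log2 change −1.79). Pim2 also fell there, from 14.8 and 16.1 to 9.18 and 9.24 (−0.74). The largest rises were those of Fgl2, from 1.24 and 1.48 to 3.63 and 4.17 CPM (+1.52), and of the transcription factor gene Stat5a, from 2.42 and 2.44 to 5.87 and 6.76 (+1.38).

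The receptor gene Il6ra, which encodes the interleukin-6 binding subunit that pairs with gp130, rose in all 4 comparisons in which RYBP was depleted or altered or the TF-AA mutation was present, as did Fos, a subunit of the AP-1 transcription factor. Il6ra CPM went from 3.21 and 3.23 to 12.9 and 13.0 in shRybp cells (+2.01), from 0.751 and 1.17 to 3.79 and 4.69 in Rybp-/- cells (+2.14), from 2.39 and 3.18 to 8.76 and 9.14 with phase-disrupted RYBP (+1.68) and from 1.34 and 1.63 to 2.46 and 2.83 in TF-AA cells (+0.83, adjusted p = 0.0467). When RYBP was induced in J1 cells it went the other way, from 3.27 and 3.79 to 1.12 and 1.57 (−1.40, adjusted p = 0.00685). In shWdr5 and rTRS cells it was not called (adjusted p = 0.187 and 0.909). Its groups did not overlap in any of the 5 tables where it was called. Fos was also called higher in shWdr5 cells and in the rTRS line, where it went from 5.81 and 6.22 to 32.6 and 35.7 CPM (5.67-fold). Its log2 change was +1.18 in shRybp, +0.45 in Rybp-/-, +1.18 in TF-AA and +0.15 in phase-disrupted cells. Lif itself, the ligand, rose in shWdr5 cells from 4.49 and 5.01 to 23.2 and 25.3 CPM (+2.35), and Jak3, a kinase best known from lymphoid cytokine receptors, from 102 and 110 to 297 and 317 (+1.54). Lif was also called higher in shRybp, Rybp-/- and rTRS cells. Jak3 was also called higher in shRybp, Rybp-/- and TF-AA cells, and lower in the rTRS line. Gbx2, a homeobox gene activated by LIF, fell in both knockdowns, from 88.9 and 99.2 to 27.5 and 27.8 CPM in shRybp (−1.77) and from 83.6 and 91.8 to 14.6 and 16.2 in shWdr5 cells (−2.51), and in the rTRS line from 21.1 and 25.9 to 8.01 and 9.03 (−1.46). Pim2, the third Pim kinase gene, rose in the rTRS line from 21.9 and 25.1 to 133 and 144 (+2.56), and fell with phase-disrupted RYBP from 98.7 and 105 to 34.4 and 39.4 (−1.47) and in Rybp-/- cells from 74.8 and 78.5 to 42.5 and 45.3 (−0.80). Osm, the gene of a related cytokine, was at 1.11 and 1.3 CPM in shRybp against 0.0272 and 0.0506 in shEV cells, too few reads there for a fold change.

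The remaining genes with the largest changes of this list were spread over the roles. Cyclin D1 (Ccnd1) fell in shRybp cells from 215 and 218 CPM to 126 in the higher of the 2 treated libraries (−0.82). Cntfr, the receptor subunit for ciliary neurotrophic factor, fell in shWdr5 cells from 21.1 and 25.7 to 6.73 and 8.16 (−1.65) and in J1 cells with DOX from 5.45 and 5.9 to 3.01 and 3.65 (−0.77), but was called higher in Rybp-/-, phase-disrupted and rTRS cells. The cytokine gene Clcf1 rose in Rybp-/- cells from 0.261 and 0.547 to 0.961 and 1.16 (+1.39), and Mycn fell there from 224 and 231 to 140 and 140 (−0.70). Each of these genes had treated libraries wholly outside the range of its controls. With phase-disrupted RYBP, Stat5b rose from 9.92 and 10.8 to 16.1 and 16.4 (+0.65) and Myc, a proto-oncogene and LIF target, fell from 29.3 and 30.3 to 12.3 and 15.3 (−1.11). The survival gene Mcl1 was the single pathway gene that rose in J1 cells, from 445 and 473 to 514 and 534 (+0.19). In the rTRS line Il11, a ligand gene, rose from 0.0931 and 0.0978 to 0.746 and 0.867 (+3.05), and Klf4, a pluripotency factor downstream of STAT3, fell from 189 and 203 to 84.6 and 95.7 (−1.12), whereas it was called higher in shRybp, shWdr5 and Rybp-/- cells.

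The genes whose deviations from the table mean ran most like those of Socs3 over the 26 libraries, among 13126 genes, were Trap1a (r = 0.955), Jarid2 (0.952), Bai1 (0.940), BC032203 (0.914) and AU018091 (0.906). This order leans on the rTRS table: without it, r was 0.422 for Trap1a, 0.747 for Jarid2 and 0.417 for Bai1 over 22 libraries. For Stat3 they were Plagl1 (0.863), B2m (0.818), Ltbp1 (0.811), Tgfbr2 (0.808) and 2610301G19Rik (0.756), with 0.838, 0.812, 0.773, 0.742 and 0.767 without that table. For the shWdr5 libraries the deviation was from the shEV mean of their table, not from the table mean. The libraries share treatments and controls, so these are descriptions with no test.

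RING1B, the catalytic subunit of the RYBP-containing complex, had peaks at 8 of 9 member genes in R1 shEV cells (41.8% of all genes) and in shStat3 cells (37.9%), all but Il6st. Of protein-coding genes, 55.7% and 50.8% had one. With a 50 kb window Il6st was counted too in both lists, where 61.3% and 57.8% of all genes had a peak. Promoter peaks were those within 2.5 kb of the gene start. The Socs3 promoter stood apart. Its RING1B enrichment was 3.04 in shEV and 30.4 in shStat3 cells, and its peak widened from 1068 to 3835 bases. The lists held 14408 and 12017 peaks, so percentiles within each list are relative to lists of unequal length. By percentile, it moved from percentile 5.58 to 91.8, a shift of 86.3 points, and 1 gene of the 9477 with a promoter peak in both lists shifted further. The middle gene shifted by −2.45 points, with 5th and 95th percentiles of −33.6 and 25.1. The target genes and the receptor gene Lifr moved the same way to a lesser degree. Bcl3 went from 3.56 to 8.78 (48.3 points, 46 genes further), Lifr from 3.57 to 5.7 (32.9 points, 242 further), Pim1 from 4.01 to 6.74 (26.4 points, 425 further) and Pim3 from 4.5 to 6.66 (15.1 points, 978 further). The promoters of Jak1 (9.15 to 10.6) and Jak2 (13.7 to 14.2) had the strongest RING1B peaks of the members in shEV cells and shifted by −2.11 and −3.67 points. At the Stat3 promoter the enrichment went from 4.35 to 3.82 (−19 points). Each list is from 1 library, so these shifts have no replicate check and no test.

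**Figure D4:**
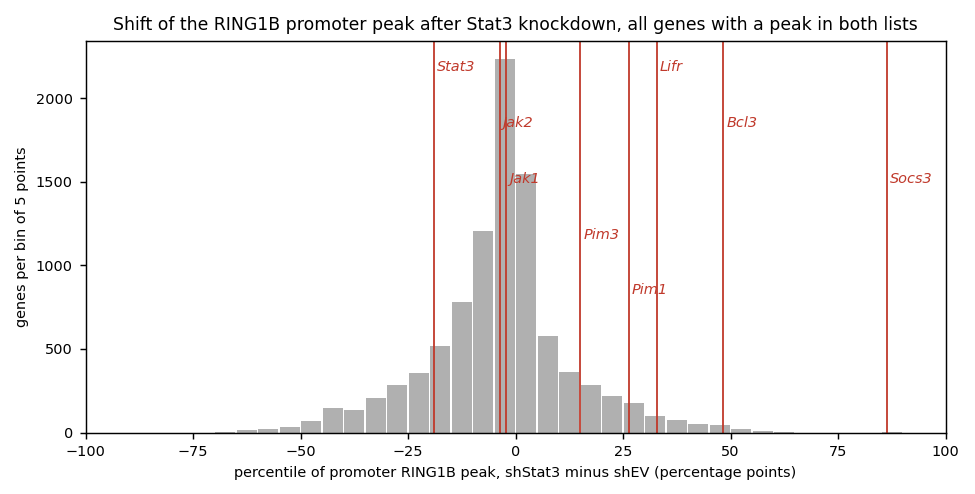
Number of genes (y axis) by the shift of their RING1B promoter peak between shEV and shStat3 cells, in percentile points within each list (x axis), for the 9477 genes with a peak in both. Red lines mark 8 member genes. Socs3, at 86.3 points, lies at the far right and Bcl3, at 48.3, is next.

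With doxycycline in Tet.Rybp.Stat3 cells the RING1B peaks of the members changed otherwise. Peaks lay at 8 of 9 members without DOX (48.1% of all genes) and at 7 of 9 with it (38.6%), the one at Stat3 being listed only without DOX. Of protein-coding genes, 63.5% and 51.6% had one. With a 50 kb window all 9 members had one in both lists (66.2% and 59.1% of all genes). The lists held 17021 and 12864 peaks. Over 10301 genes the middle shift was −7.54 points, with 5th and 95th percentiles of −45.5 and 9.29. Socs3 went up, from 5.74 to 7.12 (10.9 points, 432 genes further), whereas Pim3 went from 8.61 to 4.17 (−33.4), Bcl3 from 6.1 to 3.68 (−30.4), Pim1 from 5.49 to 3.66 (−24.9) and Lifr from 6.79 to 4.45 (−20). These falls lay inside the spread of all genes, with 1373 genes falling further than Pim3 and 2802 further than Lifr. Jak1 (24.9 to 17.3) and Jak2 (18.5 to 17.2) shifted by −5.22 and −1.33 points. These lists come from 2 merged libraries each. The labels give R1 as the line of these cells, and rTRS as that of the RNA libraries with the same genotype, so the RING1B and RNA values were not joined.

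**Figure D5:**
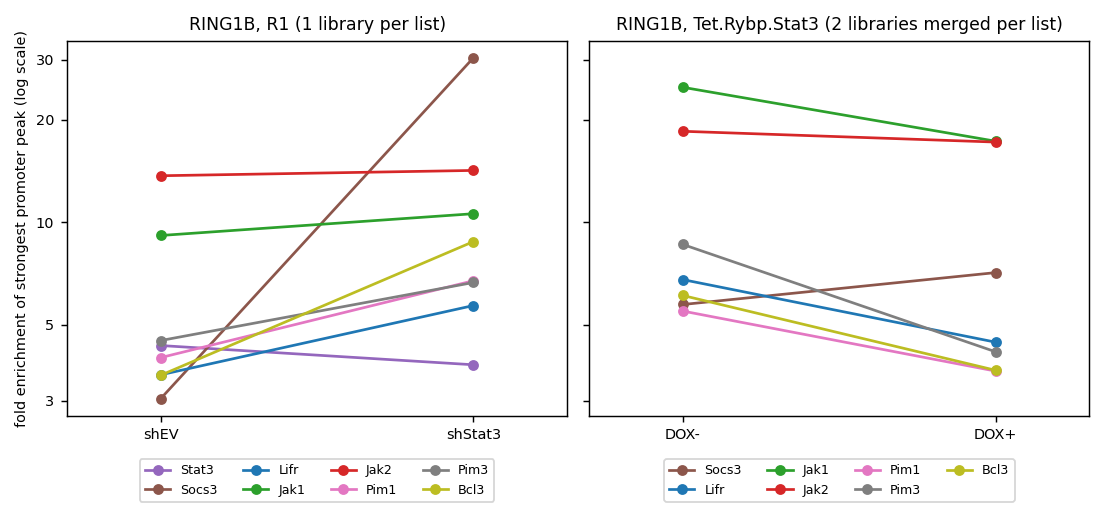
Fold enrichment of the strongest RING1B promoter peak (y axis, log scale) of the member genes, in shEV and shStat3 cells (left, 1 library per list) and in DOX- and DOX+ cells (right, 2 libraries merged per list). Socs3 climbs from 3.04 to 30.4 on the left, and on the right it is the only line that rises, from 5.74 to 7.12.

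WDR5 and active histone marks were compared between Rybp+/+ and Rybp-/- cells by presence, extent and enrichment. WDR5 peaks lay at 8 of 9 members in Rybp+/+ (39.8% of all genes) and in Rybp-/- cells (41.9%), and H3K27ac (50.3% and 53.6%) and H3K4me3 (59.5% and 59.6%) at 9 of 9 in both. Among protein-coding genes the shares were 54.1% and 56.7% for WDR5, 63% and 66.7% for H3K27ac, and 74.9% and 75.1% for H3K4me3. Il6st, the member without a WDR5 peak, had one in both lists with a 50 kb window (56.7% and 58.6% of all genes). The H3K27ac list held 57642 peaks in Rybp+/+ and 62669 in Rybp-/- cells. Over the 9 members its peaks numbered 47 and 36. They numbered 31 and 26 at a −log10 q of at least 5, 28 and 19 with a 2 kb window, and 105 and 104 with a 50 kb window. Within 10 kb of Lifr they numbered 11 in Rybp+/+ cells, covering 8.95 kb, and 5 in Rybp-/- cells, covering 3.1 kb. They went from 5 to 2 at Stat3, from 5 to 3 at Jak2 and from 7 to 5 at Pim3. They went from 2 to 5 at Pim1, from 6 to 9 at Bcl3 and from 4 to 5 at Socs3, where the length covered was about the same (8.72 and 8.61 kb, 14.9 and 14.3 kb, 16.9 and 16.2 kb). At Il6st they numbered 6 and 1. The 1 left in Rybp-/- cells is a strong peak 11.3 kb upstream of the start, which the 10 kb window reaches only at its edge, with an enrichment of 25.1 against 26.8 in Rybp+/+ cells. With a 2 kb window, or with at least 50% of the peak required inside the window, Il6st was not counted and 8 members remained in Rybp-/- cells. The weak Il6st promoter peak of H3K4me3 was listed in Rybp+/+ cells alone. WDR5 enrichment at promoters went from 12.5 to 17.1 at Stat3, from 11 to 14.3 at Pim3, from 6.8 to 6.62 at Socs3 and from 6.63 to 5.71 at Pim1. It was lower at Lifr (5.04 to 3.69, −27.8 points) and at Jak2 (4.06 to 2.41, −24.9 points), shifts inside the spread over 10847 genes (5th and 95th percentiles −37.8 and 44) between lists of 11965 and 12946 peaks. At Bcl3 the WDR5 peaks were intronic only (2.79 and 3.32). The H3K4me3 and H3K27ac shifts of the 8 members with a promoter peak in both lists also lay between the 5th and 95th percentiles of all genes (−15 and 13.9 points, and −16.4 and 21). H3K4me3, a mark of active promoters, went from 38.4 to 54.4 at Socs3, the member whose RNA rose most in these cells, and from 48.1 to 71.3 at Pim1, whose RNA had a log2 change of 0.00. At Stat3 it went from 42.5 to 52 and at Bcl3 from 39.1 to 43, while at Pim3 (55 to 49.9) and Lifr (46.4 to 41.5) it was lower. H3K27ac, a mark of active promoters and enhancers, went from 11.4 to 7.91 at the Lifr promoter and from 38.2 to 23.7 at a stronger Lifr peak 13.1 kb upstream of the start. It was 26.1 and 23.4 at Socs3, 25.4 and 23.5 at Stat3, and 6.4 and 9.1 at Jak1. At Il6st the strong H3K4me3 peak (66.7 and 68.0) lay 10.7 kb upstream of the annotated start, outside the promoter window set from that start. These lists are merged from 2 libraries each and give no replicate check.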

How the data were processed

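RNA-seq tables held raw read counts per gene, deposited by the authors after Trim Galore, STAR alignment to mm9 and htseq-count. Peak lists held the fold enrichment (a ratio over input) and −log10 q of each peak, which the authors made with Bowtie2 (mm9) and MACS2 after removing duplicates and merging replicates. Gene lengths came from the deposited tables. The member genes, the pathway and marker lists and the tests were chosen with earlier results of these data known. Of 37620 genes, 37205 had a symbol in the name table. Summary rows that name no gene, 13.7 to 26.5% of aligned reads (the J1 table has none), stayed out of all totals.

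Each table was fitted alone in edgeR 4.0.16 (limma 3.58.1, R 4.3.3): filterByExpr, TMM scaling, quasi-likelihood F-test, Benjamini-Hochberg adjustment over all genes tested, threshold 0.05, SE from the F statistic. Differences between effects were interaction terms over 2 tables. The script was tested on simulated counts. All 9 members are named, and of the 56 pathway genes the 2 largest rises and 2 largest falls among those called in each comparison. The Il6ra values of further tables and those of Fos were added after their values were seen. Likeness used log2(CPM + 0.5) less the mean of each table, or for the shWdr5 libraries less the shEV mean of their table. Alternatives were RLE scaling, no filter beyond 1 read, DESeq2 1.42.0, the replicate block, and leaving out each library. A stricter −log10 q of 5 and windows of 2 and 50 kb were tried for peaks. Motifs were sought in 200-base windows of the mm9 genome, with gene starts from its annotation. Python 3.11.15, pandas 2.3.3, numpy 2.4.6 and matplotlib 3.10.9 were used.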

Additional observations from a re-analysis of the deposited data

Results flagged for a closer look

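These 7 member genes are listed here because the effect of depleting Rybp differed between the knockdown in R1 cells and the knockout in R7.15 cells by an interaction test (edgeR, adjusted over all genes). The difference (knockdown minus knockout, log2 scale) was −1.0789 for Bcl3, −0.6202 for Pim1, −0.5336 for Pim3 and −0.3273 for Socs3. It was 0.6787 for Jak2, 0.4751 for Jak1 and 0.2911 for Il6st. Of the 2 effects, Socs3 and Il6st passed the threshold in the knockout alone, Bcl3, Pim1, Pim3 and Jak2 in the knockdown alone, and Jak1 in both, with opposite signs. Cell line, table and way of depletion differ together and cannot be told apart.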

How the results depend on the processing

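RLE scaling kept all 81 member values (9 genes, 7 comparisons and 2 differences) on their side of the threshold, and the median gene moved by −0.03 to 0.02 over scalings. DESeq2 lost 3 of 51 calls, and dropping the filter lost 1 and gained 1. Leaving out a library lost the call in 26 of 260 values, gained one in 4 of 136 and turned the direction of 23 uncalled values. The cause was not tested for any of these. In Rybp-/- cells the calls of Stat3 and Jak1 were lost when some libraries were left out. In J1 cells 2 members were called with no filter beyond 1 read (4.33% of all genes tested) and 2 with the replicate block (8.11%). Lifr, Il6st or Pim3 also passed the threshold there when a vehicle library was left out. Genes called numbered 2724 to 4767 in TF-AA cells when a library was left out (2724 without TF-AA replicate 1 and 2733 without TF-AA replicate 2, 4412 with all), 406 to 1566 in J1 cells (406 and 409 without DOX replicates 1 and 2, 1566 and 1467 without vehicle replicates 1 and 2, 899 with all), and 2980 in DESeq2 against 4814 in edgeR with phase-disrupted RYBP. At a −log10 q of at least 5, RING1B peaks in shEV cells lay at 4 members (8 without it), against 27.6% of all genes (41.8% without it). STAT3 peaks in DOX- cells lay at 5 (8 without it), against 4.19% of all genes (10.1% without it).

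Uncalled log2 changes turned direction as follows. Pim1 in Rybp-/- cells was −0.0045 with no filter beyond 1 read. Ranges when a library was left out were −0.0163 to 0.0587 for Socs3 in shRybp, −0.135 to 0.0461 for Il6st and −0.0726 to 0.117 for Jak1 in shWdr5 cells. In Rybp-/- cells they were −0.0871 to 0.151 for Jak2, −0.0276 to 0.0212 for Pim1 and −0.0296 to 0.0689 for Pim3. For Bcl3 in TF-AA cells the range was −0.235 to 0.0175. With phase-disrupted RYBP it was −0.0519 to 0.145 for Socs3, −0.116 to 0.0155 for Jak1 and −0.15 to 0.0195 for Jak2. In J1 cells it was −0.0591 to 0.0288 for Socs3, −0.0234 to 0.166 for Pim3 and −0.0933 to 0.0169 for Bcl3. The difference between knockdown and knockout was −0.0445 to 0.0522 for Lifr, and that between rTRS and J1 was −0.133 to 0.0174 for Il6st.

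Samples with the same replicate number share only that number: the correlation of their deviations was −0.021 to 0.074 over the 7 tables. The replicate block kept all 51 calls and added Lifr in J1 (−0.19, adjusted p = 0.0294), Jak1 in TF-AA (−0.17, 0.0429) and Il6st in rTRS cells (0.12, 0.0479).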
